A study of Homo sapiens with 2 samples.

Results

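The mRNAs of the cytosolic ribosomal proteins were followed through an RNA immunoprecipitation (RIP) of IMP1, an RNA-binding protein with KH domains that is found with mRNAs in cytoplasmic granules. The members were taken by gene name, as all genes named RPL or RPS with a number and at most 1 letter A, L, X or Y, together with RPLP0, RPLP1, RPLP2 and RPSA and without the Y-linked gene RPS4Y1. This gave 82 of the 18781 genes in the deposited table, 48 for the large subunit and 34 for the small subunit. The data hold 2 libraries from wild-type T47D cells, an established line of luminal breast cancer. For 1 library the lysate was precipitated with an anti-IMP1 antibody, and for the other with normal IgG as the control. No input library was used here, so that binding to the beads and abundance in the lysate cannot be told apart, nor can fewer cells of a type and less RNA per cell.

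A ribosome consists of a small subunit, which decodes the mRNA, and a large subunit, which joins the amino acids. Each ribosomal protein is, with few exceptions, encoded by a single active gene, while the genome carries many silent processed copies of these genes. Ribosomal protein mRNAs begin with a 5′ terminal oligopyrimidine (TOP) tract, a C followed by a run of C and T letters at the start of transcription, through which growth signals control their translation as a group. They are among the most abundant mRNAs of growing cells.

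Start sequences are shown for 12 members past 2-fold between the libraries in either direction, with and without a tract. They are also shown for RPL35A and RPL38, which were nearly level as deposited, and for RPL39 and RPS24, which have long tracts. Each window has 30 bases, from 10 before to 19 after the annotated start base in RefSeq (GRCh38.p14), and reads 5′ to 3′ on the strand of the gene. Capitals mark the C and T letters that run without a break from the start base.
RPS16, chr19:39435930-39435959, minus strand: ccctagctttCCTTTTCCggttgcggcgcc
RPL3, chr22:39319604-39319633, minus strand: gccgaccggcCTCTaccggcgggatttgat
RPL10L, chr14:46651762-46651791, minus strand: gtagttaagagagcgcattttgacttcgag
RPL36A, chrX:101391001-101391030, plus strand: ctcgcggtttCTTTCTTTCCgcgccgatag
RPS28, chr19:8321486-8321515, plus strand: gaagcacgtgactcctctccgccagaccgc
RPL41, chr12:56116623-56116652, plus strand: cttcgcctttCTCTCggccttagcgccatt
RPL18, chr19:48619159-48619188, minus strand: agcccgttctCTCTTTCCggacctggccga
RPL35A, chr3:197950180-197950209, plus strand: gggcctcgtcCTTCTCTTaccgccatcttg
RPL38, chr17:74203668-74203697, plus strand: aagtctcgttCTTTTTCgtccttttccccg
RPS24, chr10:78033853-78033882, plus strand: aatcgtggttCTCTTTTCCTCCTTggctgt
RPL39, chrX:119791611-119791640, minus strand: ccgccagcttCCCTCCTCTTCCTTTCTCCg
RPL21, chr13:27251548-27251577, plus strand: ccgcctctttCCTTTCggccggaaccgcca
RPS12, chr6:132814559-132814588, plus strand: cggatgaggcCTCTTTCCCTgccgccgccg
RPL31, chr2:101002279-101002308, plus strand: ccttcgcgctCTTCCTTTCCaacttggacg
RPL12, chr9:127451387-127451416, minus strand: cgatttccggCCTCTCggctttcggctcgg
RPS27L, chr15:63157458-63157487, minus strand: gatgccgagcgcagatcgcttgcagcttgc

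With a TOP start taken as a C that opens a run of at least 5 pyrimidines at the annotated base, 46 of 64 members had one. These 64 are the members with a start in the set of RefSeq starts used here. Of all 79 member starts 58.2% were of this kind, against 4.07% of all 35116 starts in the set and 4.67% of the starts of the other genes in the deposited table. The run of RPL3 stopped at 4 letters, and that of RPL39 reached 19. RPS28, RPL10L and RPS27L, a paralogue of RPS27, had no pyrimidine at the start base. The motif CTTTCC, which can overlap such a tract, lay on either strand in 46.8% of the member windows of 300 bases and in 26.3% of all such windows. A match describes the letters only. In the set used, 18 members had no start, which does not mean that RefSeq gives none for them.

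Levels are given in FPKM, fragments scaled by transcript length and by library size, so that they can be compared between genes. The depth of the libraries is unknown. Since each condition has 1 library, no difference below has a replicate check or a test. The whole table summed to 353885 FPKM with IMP1 and to 1298363 FPKM with IgG, and mitochondrially encoded genes made up 48.4% and 59.9% of these sums. Of the 18781 genes, 1202 were listed at 0 with IMP1 and 7270 with IgG. The luminal markers KRT8, KRT18, KRT19, ESR1, PGR, GATA3, FOXA1 and XBP1 were above 0 in both libraries and TFF1 was listed at 0 with IgG, with sums for all 9 of 1161 FPKM for IMP1 and 483 FPKM for IgG. The 10 mesenchymal markers summed to 2.70 FPKM with IMP1, where DCN, LUM, ZEB2, COL1A2 and SPARC were listed at 0, and to 232 FPKM with IgG, where each was above 2 FPKM. CD14, a marker of monocytes, had 0.103 FPKM with IMP1 and was listed at 0 with IgG. The luminal identity of T47D thus showed in both libraries, while the mesenchymal transcripts were seen almost only with IgG. Their part in the values below was not tested, and no value can be given without either library.

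Ribosomal protein mRNAs stood at nearly the same level in both precipitates. The median member had 287 FPKM with IMP1 and 307 FPKM with IgG, and the 82 members summed to 28061 FPKM and 29347 FPKM. As a share of all FPKM they made up 7.93% with IMP1 and 2.26% with IgG, and without the mitochondrially encoded genes 15.4% and 5.63%. The similar level and the unlike share go together because the summed FPKM of all genes was 3.67 times higher with IgG. Among the 100 highest genes that are not mitochondrially encoded, 53 were members with IMP1 and 41 were members with IgG.

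**Figure D1:**
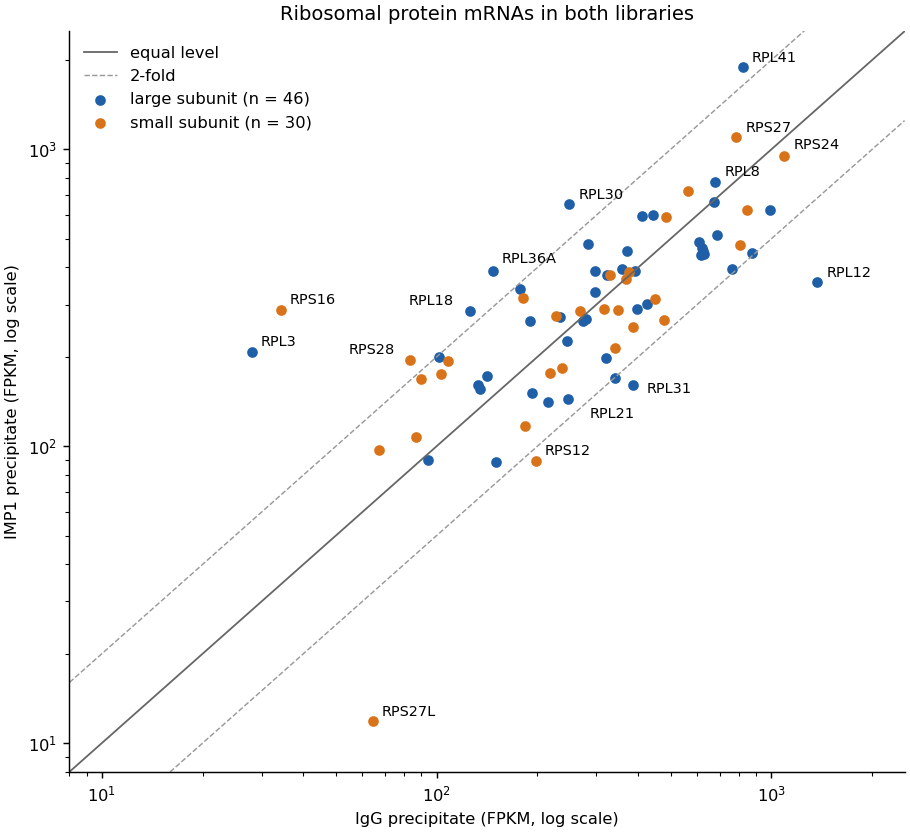
FPKM of 76 of the members with at least 1 FPKM in both libraries, IgG on the x axis and IMP1 on the y axis (both log scales), coloured by subunit; the solid line marks equal level and the dashed lines 2-fold. Most points lie between the dashed lines, while RPL3 and RPS16 lie far above them and RPL12 and RPS27L far below.

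Differences were taken as the log2 ratio of FPKM + 0.1, IMP1 over IgG, which makes differences of weakly expressed genes look smaller. The median difference of the members was -0.013, with quartiles of -0.50 and 0.48. By comparison, all genes had quartiles of -1.37 and 2.09 around a median of 0.40, and the 6909 detected genes, those that reached 1 FPKM in each library, had a median of -0.78. All genes include the 7270 listed at 0 with IgG and the 1202 listed at 0 with IMP1. At least 2-fold higher with IMP1 were 11 of 82 members, against 39.9% of all genes and 11.5% of the detected genes. At least 2-fold lower were 5 members, against 29.9% of all genes and 44.0% of the detected genes. Among the 79 members that were themselves detected, 8 were higher (10.1%) and 5 lower (6.33%). Of all 82, the remaining 66 members, or 80.5%, were within 2-fold, compared with 30.3% of all genes. Since members are far above the usual level, other abundant mRNAs are the closer comparison. Among 103 other protein-coding genes with a mean of at least 100 FPKM 49.5% were within 2-fold, with a median of -0.45. A filter on the mean also admits genes that are high in only 1 library. Of the 75 members that pass it, 84.0% were within 2-fold. At least 50 FPKM in both libraries, a filter that favours similar levels, was reached by 151 other protein-coding genes. Of these 70.9% were within 2-fold, with a median of -0.25. The sign of the members' median depends on scale, since it was 0.78 after setting the median gene to equal level, a shift of 0.79, and 1.86 after setting equal sums, a shift of 1.88. The number of members below 0 was 42 as deposited, 10 with the median gene at equal level and 2 with equal sums.

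The medians of the subunits lay close together. The large subunit had a median difference of -0.018 and the small subunit of 0.010, on the log2 scale, and the large minus small value was -0.029. This value was 0.11 when only members whose locus carries no other gene were kept, so that its sign is not fixed. Within 2-fold were 38 of 48 large subunit and 28 of 34 small subunit members. The large subunit held 62.7% of the members' FPKM with IMP1 and 62.6% with IgG.

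**Figure D2:**
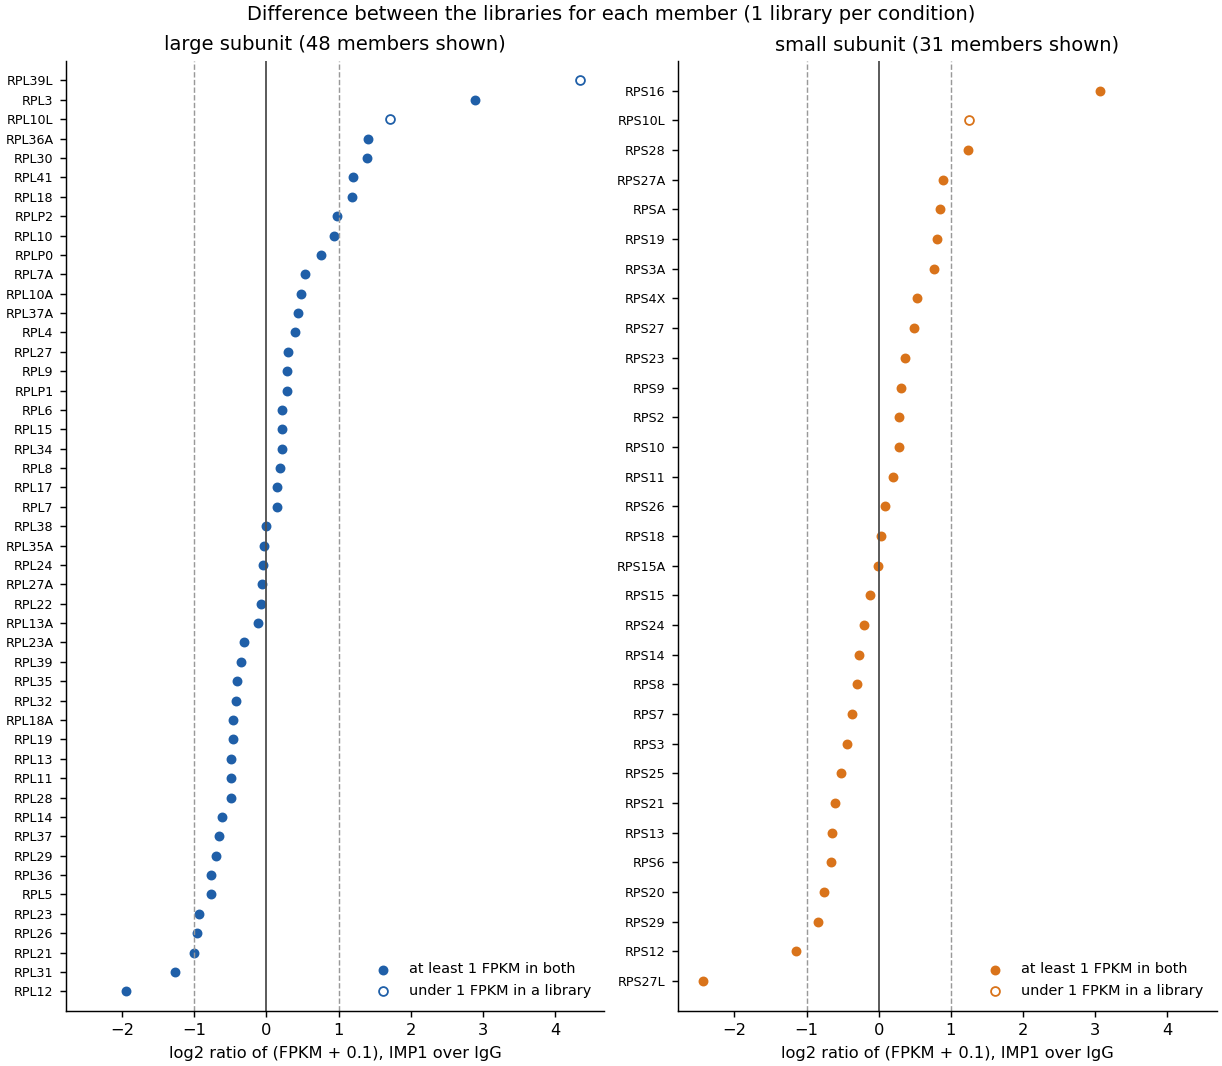
Log2 ratio of (FPKM + 0.1), IMP1 over IgG, for 79 of the members, ordered within the large subunit (left) and the small subunit (right); dashed lines mark 2-fold and open circles the members under 1 FPKM in a library. Both subunits run through 0, and most members of each lie within 2-fold.

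The levels of single members followed a similar order in both libraries. Leaving out the paralogues RPL10L, RPL39L and RPS27L, and RPS10L, which was under 1 FPKM, 78 members were left. Over these genes, which share libraries and the authors' length scaling, Spearman's rho between the libraries was 0.75 and Pearson's r of log2 levels was 0.68, given as a description. From the 10th to the 90th percentile their levels ran from 149 to 623 FPKM with IMP1, a 4.18-fold range, and from 99.3 to 768 FPKM with IgG, a 7.73-fold range. With IMP1 the 5 highest were RPL41 (1891 FPKM), RPS27 (1100 FPKM), RPS24 (949 FPKM), RPL8 (779 FPKM) and RPS23 (725 FPKM). With IgG they were RPL12 (1372 FPKM), RPS24 (1094 FPKM), RPL37 (988 FPKM), RPL26 (873 FPKM) and RPS3 (848 FPKM). Only RPS24 was in both lists, which depends on the cut at 5. With IgG, RPL41, RPS27, RPL8 and RPS23 ranked 6th, 8th, 11th and 18th among the members. With IMP1, RPL37, RPS3, RPL26 and RPL12 ranked 8th, 9th, 20th and 32nd. The 5 highest held 19.4% of the members' FPKM with IMP1 and 17.6% with IgG.

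RPS16 and RPL3 stood apart from the other abundant members. RPS16, a small subunit protein whose tail reaches towards the tRNA sites, had 288 FPKM with IMP1 but 34.3 FPKM with IgG, which is 8.38-fold or 3.07 on the log2 scale. RPL3, whose loop reaches the peptidyl transferase centre, had 208 FPKM with IMP1 but 28.0 FPKM with IgG, which is 7.42-fold or 2.89 on the log2 scale. With IMP1 they were the 41st and 55th highest members, while with IgG they ranked 78th and 79th, below every member except RPL39L, RPL10L and RPS10L. In hg19 RPS16 lies on chromosome 19 from 39923847 to 39926588 and RPL3 on chromosome 22 from 39708887 to 39716394, and no other gene of the table has either locus. No pseudogene named after RPS16 was in the table. The 6 named after RPL3 summed to 3.02 FPKM with IMP1 and 2.42 FPKM with IgG, and adding them left a log2 ratio of 2.79.

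Other abundant members past 2-fold in this direction were closer to it. RPL36A, which sits near the tRNA exit site, had 391 FPKM with IMP1 and 147 FPKM with IgG (log2 ratio 1.40). RPL30 had 653 and 249 FPKM (1.39), RPS28 had 196 and 83.0 FPKM (1.24) and RPL18 had 286 and 126 FPKM (1.19). RPL41, the smallest ribosomal protein, was the highest member with IMP1, at 1891 FPKM against 821 FPKM, a log2 ratio of 1.20. Its value is uncertain because 1 silent copy, RPL41P1, was listed at 854 FPKM with IMP1 and 273 FPKM with IgG, far above the other pseudogenes of members. With RPL41P1 and RPL41P2 added the log2 ratio was 1.33. The loci of RPL36A, RPL30, RPS28 and RPL18 are shared with other genes in the table, among them for RPL36A the readthrough gene RPL36A-HNRNPH2 at 3.37 and 7.33 FPKM.

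RPL12 was the abundant member most clearly lower with IMP1. It forms the base of the stalk that recruits translation factors, and it had 357 FPKM with IMP1 and 1372 FPKM with IgG, 3.84-fold lower with a log2 ratio of -1.94. It thereby went from the highest member with IgG to the 32nd with IMP1. RPL31, near the polypeptide exit, had 160 and 385 FPKM (-1.26), RPS12, in the beak of the small subunit, had 89.5 and 197 FPKM (-1.14), and RPL21 had 169 and 340 FPKM (-1.01). RPL31 shares its locus entry with CNOT11 and TBC1D8, while RPL12, RPS12 and RPL21 have theirs alone. With equal sums the log2 ratios of RPL31, RPS12 and RPL21 turned to 0.61, 0.73 and 0.87, while that of RPL12 was -0.07.

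Of the groups of proteins that sit together in the ribosome, the stalk, the tunnel, the mRNA entry and exit, the decoding site and the head each held values on both sides of 0 as deposited, a count that changes with the scale as given above. The stalk proteins RPLP0 (479 FPKM with IMP1, 284 with IgG), RPLP1 (172 and 142 FPKM) and RPLP2 (199 and 102 FPKM) all had higher values with IMP1. Their log2 ratios were 0.75, 0.28 and 0.97, whereas RPL12 at the base of the stalk was lower. RPL5 (88.3 and 151 FPKM) and RPL11 (303 and 426 FPKM), which carry the 5S rRNA into the large subunit and can bind MDM2, were both lower, by less than 2-fold, with log2 ratios of -0.77 and -0.50 that turned to 1.10 and 1.38 with equal sums. Next to RPL3, the peptidyl transferase neighbours RPL8 (779 and 681 FPKM) and RPL10 (339 and 177 FPKM) had log2 ratios of 0.19 and 0.93. As deposited, 4822 of the 6909 detected genes and 42 of the 82 members were lower with IMP1, with medians of -0.78 and -0.013. Beside these, the 8 proteins of the nascent chain tunnel and exit site ran from -1.26 to 0.40, with a median of -0.38. Lower with IMP1 were 6 of these 8. These were RPL19 (454 and 626 FPKM), RPL23A (489 and 606 FPKM), RPL26 (449 and 873 FPKM), RPL31, RPL35 (515 and 686 FPKM) and RPL39 (151 and 193 FPKM), while RPL4 (390 and 296 FPKM) and RPL17 (331 and 298 FPKM) were higher, all but RPL31 by less than 2-fold.

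In the small subunit, the mRNA entry proteins RPS2 (592 and 484 FPKM) and RPS3 (623 and 848 FPKM) went opposite ways, with log2 ratios of 0.29 and -0.44. At the mRNA exit, RPSA had 194 and 108 FPKM, a log2 ratio of 0.84, RPS26 had 285 and 268 FPKM and RPS14 had 289 and 347 FPKM, beside RPS28 above 2-fold. The decoding site proteins RPS23 (725 and 565 FPKM), RPS27A (168 and 90.1 FPKM), which is made as a fusion with ubiquitin, and RPS15 (291 and 316 FPKM) were all within 2-fold. In the head and beak RPS20 had 477 and 806 FPKM and RPS10 had 275 and 227 FPKM, with log2 ratios of -0.76 and 0.28. RPS6, the substrate of S6 kinase, had 215 and 341 FPKM (-0.67).

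**Figure D3:**
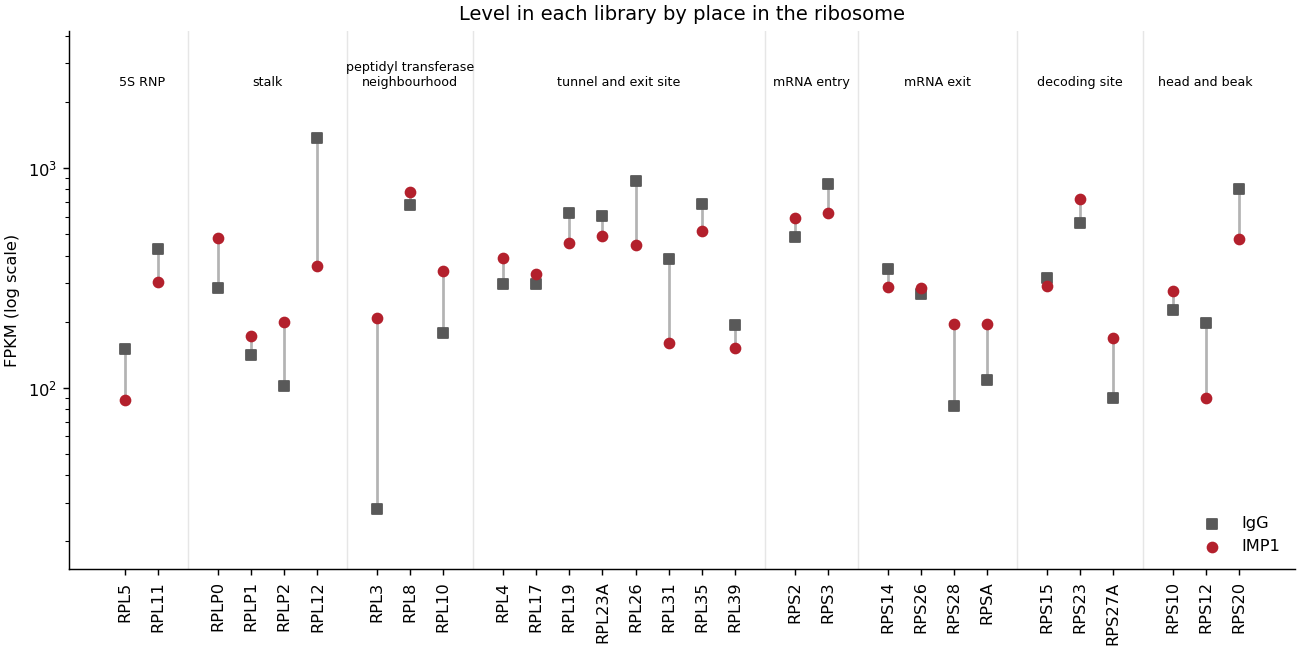
FPKM (log scale) of members in 8 neighbourhoods of the ribosome, with IMP1 as circles and IgG as squares joined by a line for each gene. The lines point both ways within the stalk, the tunnel, the mRNA entry and the head, and the longest belong to RPL3 and RPL12.

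Some members nearly coincided in both libraries as deposited, though setting the median gene to equal level moves them up by 0.79 and equal sums by 1.88. RPL38 had 388 FPKM with IMP1 and 391 FPKM with IgG, RPS15A had 365 and 369 FPKM, RPL35A had 663 and 675 FPKM and RPS18 had 385 and 375 FPKM, all within 0.04 of 0 on the log2 scale.

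RPL39L and RPS27L differed in level ratio from their parent genes. RPL39L, a paralogue known from testis and tumours, had 13.9 FPKM with IMP1 and 0.588 FPKM with IgG. Its log2 ratio was 4.35, or 3.23 with a pseudocount of 1, while RPL39 itself had a ratio of -0.36, which turned to between 0.22 and 1.52 under the rescalings. RPS27L, known as a p53 target, was lower with IMP1, with 11.8 FPKM against 64.5 FPKM and a log2 ratio of -2.44. In contrast, RPS27 had 1100 and 785 FPKM (0.49). RPS27L shares its locus entry with LACTB, which had 1.37 FPKM with IMP1 and 6.96 FPKM with IgG (-2.27). RPL10L, a testis retrogene, had 0.228 FPKM with IMP1 and was listed at 0 with IgG, as was RPS10L with 0.139 FPKM with IMP1. Their place past 2-fold is therefore set by the pseudocount. RPL3L was not analysed here.

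Members with and without a TOP start overlapped. The 46 with one had a median log2 ratio of -0.05, with 4 (8.70%) past 2-fold in each direction. The 18 whose annotated starts had none had a median of 0.22, with 3 higher (16.7%) and 1 lower (5.56%). Among all genes 39.9% were higher and 29.9% lower, and among detected genes 11.5% and 44.0%. RPL10L, 1 of the 3, is past 2-fold only through the pseudocount. In both directions there were windows with a tract, such as those of RPS16 and RPL12, and without, such as those of RPS28 and RPS27L. Medians by the number of named pseudogenes were also close, at -0.04 for the 30 members without one, 0.04 for the 37 with 1 to 3 and 0.09 for the 15 with 4 or more. The 162 pseudogenes together summed to 1191 FPKM with IMP1 and 623 FPKM with IgG, but without RPL41P1 the other 161 summed to 337 and 350 FPKM.

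Other genes of the pathway were listed for comparison. Of the ribosomal proteins outside the name pattern, 6 of 7 were within 2-fold. Within 2-fold were also 80.5% of the members, 30.3% of all genes and 44.6% of detected genes. The median log2 ratio of the members was -0.013, and that of these 7 was -0.37, with 5 below 0. RACK1, listed as GNB2L1 and a scaffold on the small subunit, had the highest ratio of these, with 506 and 355 FPKM (0.51), followed by FAU, a ubiquitin-like fusion, with 156 and 116 FPKM (0.42). The lowest were the paralogues RPL26L1, with 12.7 and 53.2 FPKM (-2.05), and RPL36AL, with 95.8 and 190.2 FPKM (-0.99), opposite in sign to RPL36A, though RPL36AL turned to 0.88 with equal sums.

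Other mRNAs with a TOP tract had a wider interquartile range of ratios than the members. Of the 14 listed, 5 were at least 2-fold higher with IMP1, 4 at least 2-fold lower and 5 within 2-fold, around a median of 0.17. All 14 were detected genes, of which 11.5% were higher and 44.0% lower, and among all genes the shares were 39.9% and 29.9%. The translocation factor EEF2 had 388 and 74.0 FPKM (2.39) and the helicase cofactor EIF4B had 71.3 and 14.1 FPKM (2.33). At the other end were EIF3E, a subunit of an initiation factor, with 49.2 and 176 FPKM (-1.84), and TPT1 with 249 and 739 FPKM (-1.57). The interquartile range of these 14 was 2.47 on the log2 scale, and that of the 82 members was 0.98. From lowest to highest the 14 ran from -1.84 to 2.39, and the members from -2.44 to 4.35. Median levels of the 14, 109 FPKM with IMP1 and 104 FPKM with IgG, were lower than those of the members.

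Mitochondrial ribosomal proteins, which build a separate ribosome, had a similar median but wider values. Of 80 entries by name, 2 of them pseudogenes, 20 were at least 2-fold higher and 24 at least 2-fold lower, with a median log2 ratio of -0.13 and an interquartile range of 2.29. These were 25% and 30% of the entries, beside 39.9% and 29.9% of all genes and 11.5% and 44.0% of detected genes. The widest differences were those of MRPL37 (14.7 FPKM with IMP1) and MRPL41 (11.3 FPKM with IMP1), both listed at 0 with IgG, and in the other direction MRPS31, with 2.86 and 25.4 FPKM, and the pseudogene MRPS31P5, with 0.352 and 4.49 FPKM. Their levels were far lower, with medians of 11.4 FPKM for IMP1 and 13.1 FPKM for IgG, and 8 were listed at 0 with IgG. Chaperones that escort single ribosomal proteins were lower still, at most 12.6 FPKM with IMP1. The chaperones of RPL10 (AAMP, 12.6 and 2.51 FPKM) and of RPL3 (GRWD1, 3.27 and 0.425 FPKM) had log2 ratios of 2.28 and 2.68. HEATR3, for RPL5 and RPL11, and LTV1, for RPS3, had 1.07 and 1.48 FPKM with IMP1 and were listed at 0 with IgG. Among all 18781 genes, 7270 were listed at 0 with IgG and 1202 with IMP1. TSR2, for RPS26, had 6.92 and 4.72 FPKM (0.54), and PDCD2, for RPS2, had 4.21 and 13.3 FPKM (-1.64).

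**Figure D4:**
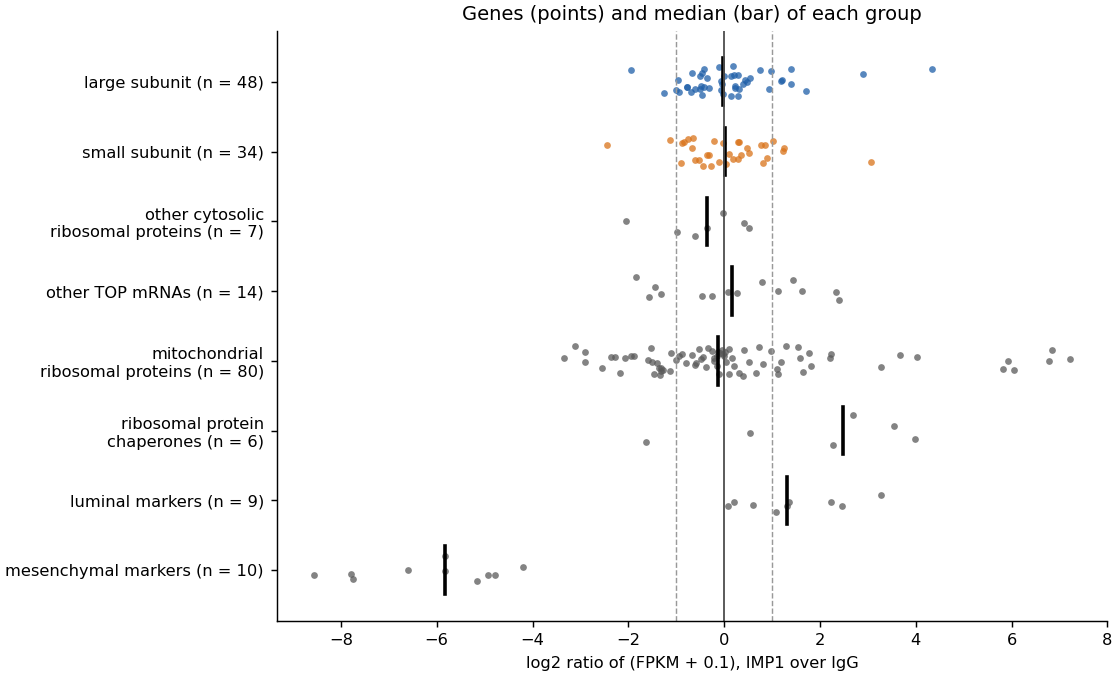
Log2 ratio of (FPKM + 0.1), IMP1 over IgG, for each gene (points) of 8 groups, with the median as a bar and dashed lines at 2-fold. Both subunits cluster around 0. Smaller shares of the other TOP mRNAs and mitochondrial ribosomal proteins lie within 2-fold, and the mesenchymal markers lie below -4.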

How the data were processed

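RNA from an IMP1 and an IgG precipitate of T47D cells was sequenced, 1 library each. The authors deposited FPKM values per gene, and the build is hg19 per the labels; the aligner, the FPKM software and the annotation release are not given in the sources used here. Exact zeros, which the authors wrote as 1e-05, were set back to 0. Depth is unknown, and 346 values for IMP1 and 228 for IgG lie between 0 and 1e-05, so that the values are not multiples of whole reads. Loci start at 0 in the table, and 1 was added; 39 members share their locus entry with another gene, so that a locus can be wider than the gene. Columns with the authors' fold changes, p-values and calls, and the tables selected by them, were not used.

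The log2 ratio of FPKM + 0.1 was taken for each of the 18781 genes, with counts of those past 2-fold; no test was possible. Genes were named as role groups, the 5 widest ratios in each direction, the 5 highest levels, members under 1 FPKM and paralogues; RPL18, RPL23, RPL32, RPL35A, RPL38, RPS15A and RPS18 were chosen after their values were seen. Members and lists were chosen with earlier results of these data known. The split by protein length was not run, and single values of a few genes are not reported here. Start sequences and gene classes are from RefSeq. Counting was tried on simulated data with IgG levels under 1 FPKM raised to 1 FPKM and planted 4-fold changes. That checks the code, and not how the counts behave for weakly expressed genes. Python 3.11.15, numpy 2.4.6, pandas 2.3.3 and matplotlib 3.10.9 were used.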

Additional observations from a re-analysis of the deposited data

How the results depend on the processing

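No paired analysis was possible because each condition has 1 library, and for the same reason none was left out. The 11 members at least 2-fold higher became 34 after rescaling IMP1 to the median gene, 73 with equal sums, 23 with equal sums without the 50 highest genes, 3 at 4-fold and 6 among members whose locus carries no other gene, a choice made after seeing the data. The 5 members lower became 2, 0, 2, 1 and 3 under the same alternatives. The median log2 ratio of -0.013 became 0.78, 1.86 and 0.56 under the rescalings, -0.027 among members that reached 1 FPKM in each library and -0.12 for loci of 1 gene. The large minus small value of -0.029 became -0.023 under that filter, -0.075 without RPL10L, RPL39L and RPS27L and 0.11 for loci of 1 gene. The share of FPKM held by members, 7.93% with IMP1 and 2.26% with IgG, became 15.4% and 5.63% without mitochondrially encoded genes and 8.27% and 2.31% with pseudogenes added. With equal sums RPL31, RPS12 and RPL21 turned to 0.61, 0.73 and 0.87. Rescaling moves every gene of the table by the same factor, not only the members. The shares of all genes past 2-fold after rescaling were not counted, so the rescaled counts describe no difference between members and other genes. Filters change which members count, and other causes were not tested. Pseudocounts of 1 and 0.01 left both counts within 1.5 times and the median at -0.013.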

Other observations

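Introns of ribosomal protein genes carry small nucleolar RNAs, which guide modification of ribosomal RNA. In the loci of members the table held 4 such genes. SNORA7A, in the locus of RPL32, was listed at 0 with IMP1 and at 31.1 FPKM with IgG, while RPL32 had 464 and 622 FPKM, a log2 ratio of -0.42. SNORA21, in the locus of RPL23, was likewise listed at 0 with IMP1 and at 27.0 FPKM with IgG, while RPL23 had 397 and 761 FPKM, a log2 ratio of -0.94. The other two, SNORD58C with RPL17 and SNORD4B with RPL23A, were at or near 0 in both libraries.

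Readthrough genes that join a member to its neighbour were low in both libraries. RPL17-C18orf32 had 3.25 FPKM with IMP1 and 12.0 FPKM with IgG, and RPS10-NUDT3 had 6.88 and 8.90 FPKM, while RPL17 and RPS10 themselves were within 2-fold.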
